A study of Mus musculus with 4 samples.

Results

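The 7 vitamin A genes described here across the nuclei of mouse liver are Lrat, Rbp4, Aldh1a1, Aldh1a2, Rarb, Cyp26a1 and Cyp26b1. They were taken by name as 7 of the 32285 mouse genes in the count tables, and all 7 were present. No measured value was used to choose them, and none of them served as a marker or as a variable gene when the nuclei were classified. The data were unique molecular identifiers (UMIs, 1 per captured RNA molecule) from single-nucleus RNA sequencing of frozen liver, with 1 library for each of 4 groups. Bl/6 mice, which the study's methods give as young adult males, were fed a chow diet (CD) or a low-protein diet (LPD) for 1 week. They were then injected through the tail vein and kept on the diet for 2 more weeks. In the oncogene groups this delivered plasmids for human c-Met and an activated β-catenin with Sleeping Beauty transposase (SB-HTVI, a hydrodynamic delivery that reaches hepatocytes), and the control groups are those whose titles say control, vector in the study's methods. Each library stands for 1 sample per group, so differences between groups have no replicate check and no test between groups was made.

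Dietary vitamin A reaches the liver mainly as retinyl esters in chylomicron remnants, which hepatocytes take up and hydrolyse to retinol, and it is stored as retinyl esters, mostly in stellate cells, the lipid-storing cells of the space between hepatocytes and the sinusoid. LRAT (lecithin retinol acyltransferase) makes the stored esters, and RBP4 (retinol binding protein) carries retinol out of hepatocytes into blood. ALDH1A1 and ALDH1A2 are retinaldehyde dehydrogenases, which make retinoic acid, the signalling form. RARβ, encoded by Rarb, is a nuclear receptor for retinoic acid whose own gene is a classical target, and CYP26A1 and CYP26B1 are the cytochrome P450 enzymes that clear retinoic acid.

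After filtering, 42877 of 44010 barcodes were kept, from 9825 to 12552 per library, and median depth was 3807 and 3294 UMIs per nucleus in the CD libraries against 1962 and 1762 in the LPD libraries. Clusters were named from marker lists, which gave 11 classes. Stellate-like nuclei numbered 368 in CD control, 604 in CD oncogene, 339 in LPD control and 161 in LPD oncogene, and all 8 stellate markers were detected, with a summed level of 3825 to 8410 CPM (UMIs of a gene or list per 1000000 UMIs of the class in that library) against 33.4 to 104 CPM in hepatocyte-like nuclei. Hepatocyte-like nuclei numbered 6864 to 9640 and sinusoidal endothelial-like nuclei 496 to 861 per library. Human transgene UMIs went against the CD labels: the library labelled CD control held 100, the library labelled CD oncogene 0, LPD control 0 and LPD oncogene 6. The study gives more nuclei for its CD vector group than for its CD oncogene group. Kept here were 10397 nuclei in CD control and 12552 in CD oncogene, the other way round. Groups are named by their labels below, and any direction drawn between the CD libraries depends on those labels. Where values of all libraries are given together, the order is CD control, then CD oncogene, then LPD control and last LPD oncogene. Pairs of libraries shared 16 to 35 cell barcodes by their letters. Intervals are exact 95% Poisson or binomial intervals that cover counting error only, not the variation between mice.

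A classical retinoic acid response element is a repeated hexamer (A or G, then G, then G or T, then TCA) with both copies in the same direction and 5 bases between them, to which a retinoic acid receptor binds with RXR. Searching both strands of the 250 bases before the RefSeq start (GRCm38.p6) found such a pair in 2 of the 7 members, Rarb and Cyp26a1. It occurred in 28 of 27025 genes with a promoter entry, or 0.104%. These 30-base stretches are shown because they are the matches found among the members, with the hexamers in capitals.
Rarb: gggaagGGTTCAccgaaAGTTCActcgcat
Cyp26a1: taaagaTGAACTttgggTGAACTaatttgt
The Rarb stretch lies on chr14:16575506-16575535, minus strand, 53 to 37 bases before the RefSeq start, and GENCODE vM21 places the element in the 5′UTR of 2 Rarb transcripts that start further upstream. The Cyp26a1 stretch lies on chr19:37697770-37697799, plus strand, with its element 32 to 16 bases before the start and its hexamers on the opposite strand. Hexamers with 1 or 2 bases between them were in the window of 0 members (0.196% and 0.204% of all genes), and a single hexamer was in that of 4 members (Rbp4, Aldh1a1, Rarb and Cyp26a1), against 41.8% of all genes. A match is only a description of letters.

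**Figure D1:**
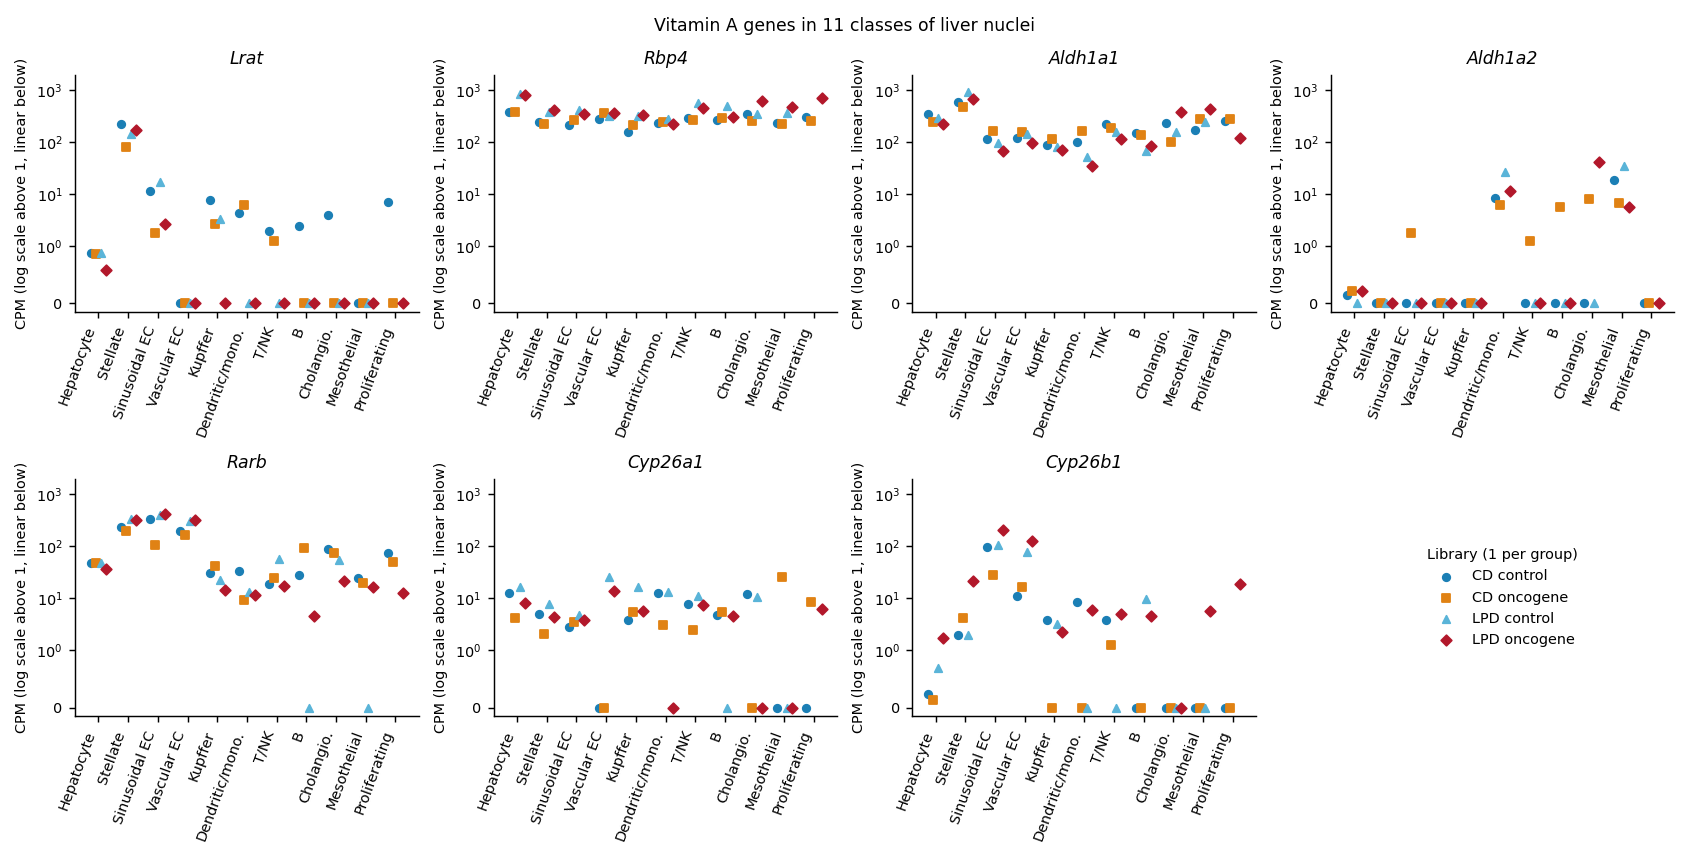
Level of the 7 vitamin A genes in CPM (y axis, logarithmic above 1 and linear below) in 11 classes of nuclei (x axis), with 1 point per library; classes with fewer than 20 nuclei in a library are left out. Lrat stands above every other class in stellate nuclei in all 4 libraries, Rarb is high in stellate and both endothelial classes, Cyp26b1 in endothelial classes, and Rbp4 is spread over every class.

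Lrat, the gene of the enzyme of ester storage (chr3:82892579-82903973, minus strand, GRCm38 as for all positions), was a stellate gene in all 4 libraries. Its level in stellate nuclei was 225 CPM in CD control (231 UMIs), 78.7 CPM in CD oncogene (115 UMIs), 141 CPM in LPD control (74 UMIs) and 170 CPM in LPD oncogene (40 UMIs). Hepatocyte nuclei held 0.584 to 0.880 CPM, so the stellate level was 256-fold (interval 183 to 366), 91.5-fold (64.6 to 131), 160-fold (94.8 to 285) and 291-fold (147 to 629) higher in the same order. Lrat was seen in 39.4%, 15.6%, 16.2% and 20.5% of stellate nuclei against 0.160% to 0.488% of hepatocyte nuclei, which were deeper (medians of 2240 to 4786 UMIs against 1122 to 1818). Lrat in hepatocyte nuclei stood at 0.344% to 1.09% of its stellate level, within the range of 10 other stellate genes there in 4 of 4 libraries. Several of those genes also served to name the classes, so their low level in hepatocyte nuclei was in part set beforehand. The part of free stellate RNA in the hepatocyte share was not tested. Sinusoidal endothelial nuclei came next at a median of 6.91 CPM over 18 UMIs in all, and vascular endothelial and mesothelial nuclei held 0 UMIs in all 4 libraries.

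The spread of stellate Lrat between libraries was wide, and the levels on the diets overlapped. As labelled, the oncogene and control libraries overlapped as well, whereas with the CD labels exchanged both oncogene libraries (225 and 170 CPM) would lie above both controls (78.7 and 141 CPM). How many stellate genes would have such an order was not counted. After each nucleus was thinned to 500 UMIs, the share of stellate nuclei with Lrat was 13.3%, 3.31%, 8.26% and 6.83%, so CD control stayed the highest and CD oncogene the lowest. The summed stellate marker level of the same nuclei was 5187, 3825, 7595 and 8410 CPM, also lowest in CD oncogene. Set against those markers, Lrat gave 43.4 UMIs per 1000 marker UMIs in CD control and 20.6, 18.6 and 20.2 in the other libraries. On this scale CD control stood apart and CD oncogene did not. Of 10 genes of stellate activation (Acta2, Tagln, collagens and others), 7 had enough UMIs, and none passed 2-fold in all 4 diet pairs or on both diets with injection. Over all 7654 stellate genes tested the shares were 2.72% and 0.418%, so this count is not read as a result about activation. Over the libraries, stellate Acta2 ran from 0 to 59.5 CPM, Tagln from 0 to 56.1 CPM and Pdgfrb from 156 to 164 CPM.

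Rbp4, the retinol carrier (chr19:38116629-38125281, minus strand), was highest in hepatocyte nuclei in 4 of 4 libraries and about 2-fold higher on LPD. The hepatocyte levels were 371 CPM (17289 UMIs) and 384 CPM (21006 UMIs) in CD control and CD oncogene, and 835 CPM (17062 UMIs) and 819 CPM (15424 UMIs) in LPD control and LPD oncogene. The 2 LPD libraries lay far above the 2 CD libraries, and within each diet the libraries nearly coincided. At 500 UMIs per nucleus, 17.2% and 17.9% of CD hepatocyte nuclei held Rbp4 against 33.9% and 34.5% of LPD hepatocyte nuclei.

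Rbp4 RNA was also counted in every other class, at 158 to 694 CPM, and was not separable there from free hepatocyte RNA. In stellate nuclei it stood at 241, 226, 376 and 416 CPM, which is 45.0% to 64.9% of the hepatocyte level of the same library. Reference genes made by hepatocytes (11 genes such as albumin) stood in stellate nuclei at a median of 48.9% to 71.6% of their hepatocyte level, and Rbp4 lay within their range in 4 of 4 libraries. The same held in sinusoidal endothelial nuclei, where Rbp4 was at 42.6% to 68.3% and the reference median at 44.0% to 90.1%. Any Rbp4 made by stellate or endothelial cells themselves was not detectable above this background.

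**Figure D2:**
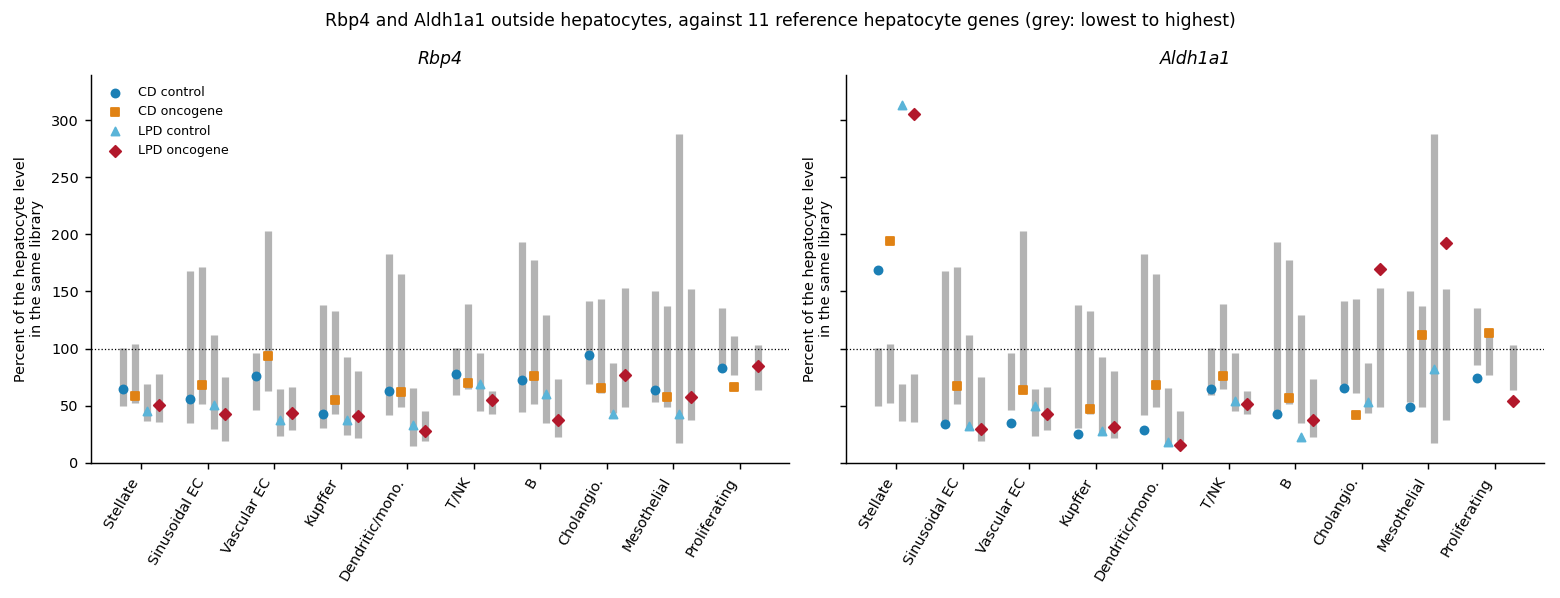
Level of Rbp4 (left) and Aldh1a1 (right) in each class other than hepatocytes, as a percent of the hepatocyte level of the same library (y axis), with 1 point per library; grey bars run from the lowest to the highest of 11 reference hepatocyte genes. Rbp4 in stellate nuclei sits at 45.0% to 64.9%, inside the grey bars, whereas Aldh1a1 in stellate nuclei sits at 169% to 313%, above them in all 4 libraries.

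Aldh1a1, a retinaldehyde dehydrogenase (chr19:20492715-20643465, plus strand), had its highest level in stellate nuclei. That level was 584 CPM in CD control (599 UMIs), 475 CPM in CD oncogene (694 UMIs), 910 CPM in LPD control (477 UMIs) and 680 CPM in LPD oncogene (160 UMIs). Hepatocyte nuclei held 346, 244, 291 and 223 CPM, so stellate nuclei were 1.69-fold (1.55 to 1.83), 1.95-fold (1.80 to 2.10), 3.13-fold (2.85 to 3.44) and 3.05-fold (2.59 to 3.58) higher. Stellate Aldh1a1 was above the range of the 11 free hepatocyte reference genes in 4 of 4 libraries. Mesothelial and proliferating nuclei came next among the non-hepatocyte classes, at medians of 257 and 256 CPM. Mesothelial nuclei held 168, 274, 239 and 428 CPM on 14 to 77 UMIs. That was 48.6%, 112%, 82.4% and 192% of the hepatocyte level, above the range of the reference genes only in LPD oncogene. Reads can be split between Aldh1a1 and its close paralog Aldh1a7, whose gene lies 49487 bases away, so values of both are uncertain to that extent. Aldh1a7 was at 39.0, 39.7, 5.72 and 12.7 CPM in stellate nuclei, lower on LPD where Aldh1a1 was higher.

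Aldh1a2, the other retinaldehyde dehydrogenase (chr9:71215789-71296243, plus strand), was close to the limit of these libraries, with 46 UMIs in all named classes. Mesothelial nuclei held 7 of them (3, 1, 2 and 1 over the libraries) and dendritic or monocyte nuclei held 8 (2 in each), at medians of 12.6 and 9.99 CPM. These levels rest on 1 to 3 UMIs per library, and their ranges overlap. Hepatocyte nuclei held 23 UMIs at 0.220 CPM or less. Stellate nuclei held 0 UMIs in each library, which allows a share of nuclei with a UMI of up to 0.815%, 0.497%, 0.885% and 1.86% (3 counts of the nuclei of each library).

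Rarb, the receptor (chr14:16430839-16819156, minus strand), was shared by the stellate and endothelial classes. In sinusoidal endothelial nuclei its level was 343 CPM in CD control (244 UMIs), 104 CPM in CD oncogene (60 UMIs), 397 CPM in LPD control (165 UMIs) and 419 CPM in LPD oncogene (325 UMIs). Stellate nuclei held 238, 199, 338 and 319 CPM, and vascular endothelial nuclei 195, 164, 305 and 318 CPM. Sinusoidal over stellate was 1.44-fold (1.20 to 1.73) in CD control, 0.521-fold (0.388 to 0.690) in CD oncogene, 1.18-fold (0.946 to 1.46) in LPD control and 1.31-fold (1.02 to 1.71) in LPD oncogene. The order of these classes therefore depended on the library, while all 3 stood above the classes that followed. Vascular endothelial nuclei were at a median of 250 CPM and cholangiocyte-like nuclei, the next, at 64.7 CPM, with ranges over the libraries that did not overlap.

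Hepatocyte nuclei held Rarb at a lower but measurable level of 47.5, 47.4, 47.8 and 36.6 CPM (690 to 2592 UMIs). That is 11.5% to 23.8% of the stellate level, above the 10 stellate reference genes, whose highest value in hepatocyte nuclei was 9.50%. Endothelial nuclei hold Rarb as well, and no endothelial reference genes were used. The part of free endothelial RNA in the hepatocyte level was therefore not tested. Stellate nuclei were 4.20-fold to 8.70-fold above hepatocyte nuclei. Kupffer nuclei stood at 39.9% to 89.5% of the hepatocyte level, where the hepatocyte reference genes ran from 21.4% to 139%.

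Cyp26b1 (chr6:84571414-84593908, minus strand), which clears retinoic acid, was an endothelial gene. Sinusoidal endothelial nuclei held 98.4 CPM in CD control (70 UMIs), 27.6 CPM in CD oncogene (16 UMIs), 106 CPM in LPD control (44 UMIs) and 210 CPM in LPD oncogene (163 UMIs). Vascular endothelial nuclei held 10.8, 16.4, 76.3 and 128 CPM on 1, 2, 9 and 19 UMIs, lower in each library. Sinusoidal over vascular was 9.09-fold (1.58 to 364) in CD control and 1.63-fold (1.01 to 2.79) in LPD oncogene, and its interval included 1 in the other libraries. Stellate nuclei held 1.95, 4.10, 1.91 and 21.2 CPM on 1 to 6 UMIs, and hepatocyte nuclei 0.128 to 1.70 CPM. Sinusoidal nuclei were above stellate nuclei by 6.73-fold to 55.5-fold, with intervals above 1 in each library.

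The library labelled CD oncogene was the lowest in sinusoidal Rarb and Cyp26b1, and the sinusoidal class as a whole was less marked there. Its summed sinusoidal marker level was 5523 CPM against 10993, 13294 and 15380 CPM in CD control, LPD control and LPD oncogene. Per 1000 marker UMIs, Rarb gave 31.2 in CD control, 18.8 in CD oncogene, 29.9 in LPD control and 27.2 in LPD oncogene. Cyp26b1 gave 8.95, 5.005, 7.97 and 13.7 in the same order. CD oncogene stayed lowest for both genes on this scale, by less than on the CPM scale. Rarg, the gene of another retinoic acid receptor, was also lowest there by CPM (114, 31.1, 96.3 and 139 CPM). So was the retinoic acid target Meis2 (2305, 841, 2811 and 2973 CPM), and neither gene was set against the markers. Rarb in vascular endothelial nuclei was lowest in CD oncogene by CPM as well (195, 164, 305 and 318 CPM). Per 1000 vascular marker UMIs it was 34.0, 42.3, 42.7 and 41.3, lowest in CD control. The part of the weaker class markers in the low Rarb, Cyp26b1, Rarg and Meis2 was not tested.

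**Figure D3:**
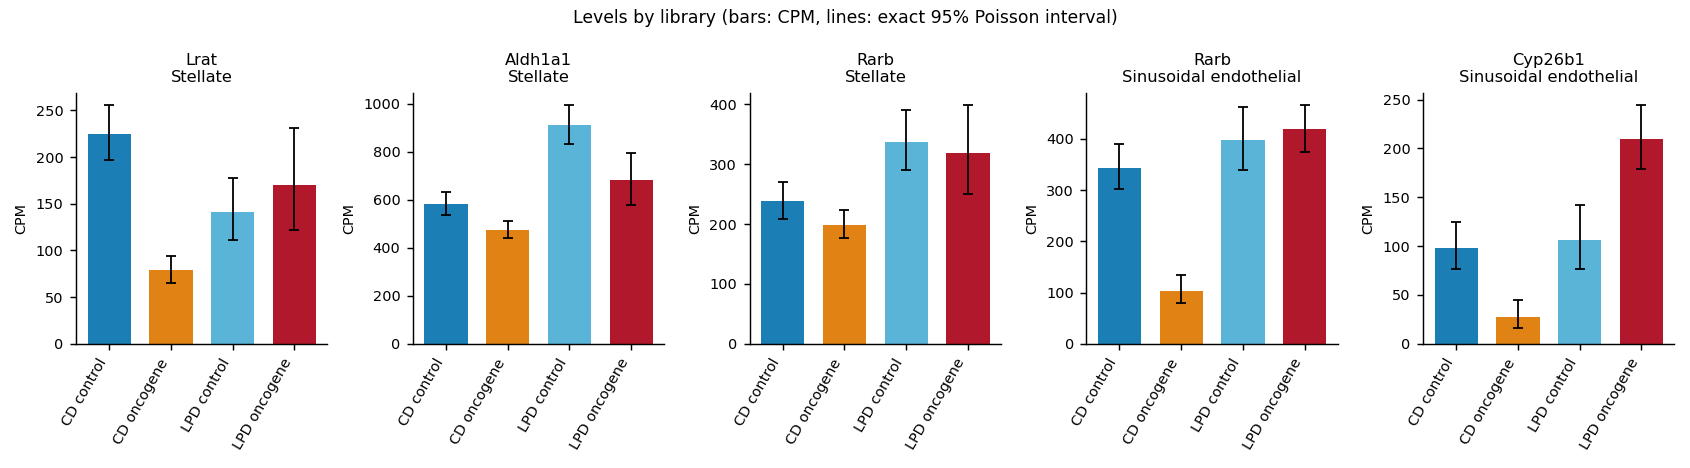
Level in CPM (bars, from 0) of Lrat, Aldh1a1 and Rarb in stellate nuclei and of Rarb and Cyp26b1 in sinusoidal endothelial nuclei in each library, with exact 95% Poisson intervals (lines) that cover counting error only. Stellate Lrat is highest in CD control (225 CPM) and lowest in CD oncogene (78.7 CPM), and sinusoidal Rarb and Cyp26b1 are lowest in CD oncogene.

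Cyp26a1 (chr19:37697798-37701536, plus strand), the CYP26 gene with a repeated hexamer before its start, was low, and 1303 of its 1377 UMIs were in hepatocyte nuclei. Hepatocyte nuclei had the highest median but were above all other classes in 0 of 4 libraries. The hepatocyte level was 12.4 CPM in CD control (579 UMIs), 4.21 CPM in CD oncogene (230 UMIs), 16.6 CPM in LPD control (339 UMIs) and 8.23 CPM in LPD oncogene (155 UMIs). As labelled, both oncogene libraries lay below both control libraries, an order that is lost with the CD labels exchanged. The gene lies under the minimum level used for the library comparisons below. How many hepatocyte genes have such an order was not counted. Stellate nuclei held 1 to 5 UMIs per library, at 39.2% to 51.6% of the hepatocyte level, which is within or below the range of the free hepatocyte reference genes. Dendritic or monocyte nuclei, next in the order at a median of 7.79 CPM against 10.3 CPM, held 5 UMIs in all and did not differ from hepatocyte nuclei beyond counting error. Vascular endothelial nuclei also held 5 UMIs in all. They stood at 0 on CD and at 153% and 164% of the hepatocyte level in LPD control and LPD oncogene.

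By profile over 43 class and library points, on log2(CPM + 5), the 3 genes most like Lrat were Pth1r (Pearson r = 0.935), Gm9947 (0.934) and Hhip (0.931), all highest in stellate nuclei. The gene most like Aldh1a1 was Sox5 (r = 0.885), also highest in stellate nuclei. Nearest to Rarb was Greb1l (r = 0.853) and near to Cyp26b1 were Gm30648 (0.901) and Cemip2 (0.878), all highest in sinusoidal endothelial nuclei. For Rbp4 it was Kyat3 (r = 0.840), for Aldh1a2 Ddr1 (0.776) and for Cyp26a1 Mrpl9 (0.564). The points share libraries and free RNA, so these coefficients only describe the profiles.

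Other genes of the pathway divided between the same cells. In stellate nuclei, Bco1, whose enzyme cleaves β-carotene into retinal, was at 98.4, 88.9, 168 and 157 CPM against 2.92 to 7.17 CPM in hepatocyte nuclei. Stra6l, which codes for a membrane receptor for RBP4, was highest in hepatocyte nuclei in 4 of 4 libraries (median 146 CPM). Hepatocyte nuclei had the highest median for Ttr, the transthyretin that binds RBP4 in plasma (1621 CPM), and Adh1, an alcohol dehydrogenase that oxidises retinol (717 CPM), but were above all other classes in 1 of 4 libraries for each. Sinusoidal endothelial nuclei had the highest median for Rarg (105 CPM, above all others in 3 of 4 libraries) and for Dhrs3, a retinal reductase (207 CPM, above all others in 1 of 4).

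The diet comparison asks how these genes differed under protein restriction, with each LPD library set against each CD library (4 pairs). A gene was called when it passed 2-fold the same way in all 4 pairs on log2((CPM + 5)/(CPM + 5)), among genes with at least 20 CPM in 1 library and 50 UMIs in all. In hepatocyte nuclei 3 of the 7 members passed that minimum (Rbp4, Aldh1a1 and Rarb), and 1, Rbp4, was called higher on LPD, where 2.68% of 7245 genes were called higher and 1.39% lower. The median of all genes tested was itself 0.13 to 0.25 higher (log2) on LPD over the pairs.

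Hepatocyte Rbp4 was 2.25-fold (2.20 to 2.30) higher in LPD control than in CD control and 2.17-fold (2.13 to 2.22) higher than in CD oncogene. LPD oncogene was 2.21-fold (2.16 to 2.26) above CD control and 2.13-fold (2.09 to 2.18) above CD oncogene. The call was lost with TMM scaling, where the median ratio was 1.01 on the log2 scale. The median mitochondrial share per nucleus also differed by diet, with 2.42% and 0.983% on CD against 0.09997% and 0.127% on LPD. Among nuclei with at least 500 genes and at most 5% mitochondrial UMIs, Rbp4 was called as well, with a median log2 ratio of 1.20. Ttr rose by less, with log2 ratios of 0.65 to 0.83, and was not called. Rbp4 was higher on LPD in each zone of the lobule described below, by 1.85-fold to 2.62-fold over the pairs.

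The other members that passed the minimum in hepatocyte nuclei, Aldh1a1 and Rarb, were not past 2-fold in any diet pair. Aldh1a1 had log2 ratios of -0.25, 0.25, -0.64 and -0.13. Rarb had 0.01, 0.01, -0.37 and -0.37, so only LPD oncogene was lower. Cyp26a1 fell under the minimum level and had log2 ratios of 0.42 (0.22 to 0.61), 1.98 (1.73 to 2.23), -0.59 (-0.86 to -0.34) and 0.97 (0.66 to 1.27), with no common direction. Cyp26b1, also under the minimum, was 2.90-fold (1.22 to 7.06), 5.35-fold (2.02 to 15.7), 7.20-fold (3.53 to 15.8) and 13.3-fold (5.75 to 35.6) higher on LPD in the 4 pairs, on 11, 7, 14 and 32 UMIs and at 1.70 CPM or less. Sinusoidal endothelial nuclei of the same libraries held 27.6 to 210 CPM, and the part of their free RNA in this difference was not tested.

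In the pathway lists, the hepatocyte genes called higher on LPD were Pnpla3, a retinyl ester and triglyceride lipase, and Mgll, a monoglyceride lipase. Pnpla3 went from 5.90 and 10.9 CPM on CD to 62.7 and 43.0 CPM on LPD. Called lower were Lpl, lipoprotein lipase, Adh7, an alcohol dehydrogenase active on retinol, and Aox3, an aldehyde oxidase that can turn retinal into retinoic acid. Adh7 was at 56.1 and 26.6 CPM on CD and at 5.33 and 4.14 CPM on LPD. Ester storage and hydrolysis had 3 of 10 tested genes called, retinol and retinal interconversion 1 of 14, and the other retinoic acid enzymes 1 of 4. The binding proteins (4 tested), receptors and corepressors (7) and genes known to be raised by retinoic acid (6) had 0 called. Over all 7245 genes tested, 2.68% were called higher and 1.39% lower. The lists are too short to tell 0 called from these shares, and differences between the lists were not tested.

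In stellate nuclei 4 of 7 members passed the minimum (Lrat, Rbp4, Aldh1a1 and Rarb), and 0 were called by diet, where 2.72% of 7654 genes were called in either direction. Short of the 2-fold limit, Rarb and Aldh1a1 were higher on LPD in each of the 4 pairs. The share of all tested genes that were higher in every pair was not counted, so this is not read as a trait of these genes. The log2 ratios of Rarb were 0.51 (0.22 to 0.79), 0.76 (0.48 to 1.04), 0.42 (0.03 to 0.80) and 0.68 (0.29 to 1.05). Those of Aldh1a1 were 0.64 (0.46 to 0.82), 0.94 (0.77 to 1.11), 0.22 (-0.04 to 0.47) and 0.52 (0.26 to 0.77), of which the one for LPD oncogene over CD control included 0. The median of all genes tested was 0.04 to 0.18, and the summed stellate markers of the LPD libraries (7595 and 8410 CPM) were above those of the CD libraries (5187 and 3825 CPM). Summed hepatocyte markers in the same stellate nuclei went the other way, with 14110 and 9196 CPM on CD and 5298 and 6804 CPM on LPD, and the part of this free hepatocyte RNA in the ratios was not tested. Per 1000 marker UMIs Rarb was 45.8 and 52.0 on CD and 44.5 and 37.9 on LPD, so the higher level on LPD was not seen on that scale. Aldh1a1 per 1000 marker UMIs was 113, 124, 120 and 80.8.

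Stellate Lrat had no common direction by diet. LPD control was below CD control (log2 ratio -0.67, -1.07 to -0.29), whereas LPD control was above CD oncogene (0.84, 0.40 to 1.28). LPD oncogene was level with CD control within counting error (-0.41, -0.93 to 0.08) and above CD oncogene (1.11, 0.55 to 1.64). Stellate Rbp4 had log2 ratios of 0.64 to 0.88, which follow the hepatocyte direction at a level not separable from free hepatocyte RNA. It was called when only nuclei with at least 2 UMIs of stellate markers and fewer than 2 of any other class except hepatocytes were kept (median log2 ratio 1.12).

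Sinusoidal endothelial nuclei were added to this comparison after the levels had been seen, because Rarb and Cyp26b1 lead there. Of 7 members, 4 passed the minimum (Rbp4, Aldh1a1, Rarb and Cyp26b1) and 0 were called by diet, where 3.47% of 6720 genes were called in either direction. Rarb was 1.94 and 2.01 (log2) above CD oncogene in LPD control and LPD oncogene, but 0.21 (-0.08 to 0.50) and 0.29 (0.04 to 0.53) above CD control. Without CD control, Rarb and Cyp26b1 were both past 2-fold on LPD, and without LPD control Cyp26b1 was (median log2 ratio 1.89). Without CD oncogene neither was.

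The injection comparison asks what the oncogenes did within each diet, and the answer on CD rests on labels that the transgene counts go against. Members past 2-fold the same way on both diets numbered 0 in stellate nuclei (0.418% of all genes tested), 0 in hepatocyte nuclei (0.345%) and 0 in sinusoidal endothelial nuclei (0.402%). Hepatocyte Cyp26a1, under the minimum level, was lower in the oncogene library on both diets, with log2 ratios of -1.56 (-1.79 to -1.34) on CD and -1.01 (-1.29 to -0.73) on LPD. Hepatocyte Aldh1a1 was lower as well, at -0.51 (-0.54 to -0.47) and -0.38 (-0.44 to -0.33), and stellate Aldh1a1 at -0.30 (-0.46 to -0.14) and -0.42 (-0.69 to -0.16). The median of all genes tested was -0.11 and -0.02 in hepatocyte nuclei and -0.09 and -0.04 in stellate nuclei. A median does not give the spread of the ratios, and how unusual these ratios are was not tested. Hepatocyte Rbp4 lay near 0 (0.05 and -0.03). With the CD labels exchanged, the CD ratio of each gene changes its sign, and Cyp26a1 and Aldh1a1 would be higher in the oncogene library on CD and lower on LPD.

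The other injection ratios were not alike on the diets. Stellate Lrat was lower in CD oncogene than in CD control by a log2 ratio of -1.52 (-1.85 to -1.19) and within counting error on LPD (0.27, -0.32 to 0.84). Sinusoidal Rarb was lower on CD (-1.73, -2.16 to -1.31) and level on LPD (0.08, -0.20 to 0.36). Cyp26b1 in the same nuclei was 0.281-fold on CD (0.152 to 0.488) and 1.98-fold on LPD (1.41 to 2.83). Whether the diets differed in these ratios was not tested, since each rests on 1 library per group. With the CD labels exchanged, Lrat, Rarb and Cyp26b1 would each be higher in the oncogene library on CD, and Cyp26b1 would be higher on both diets.

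**Figure D4:**
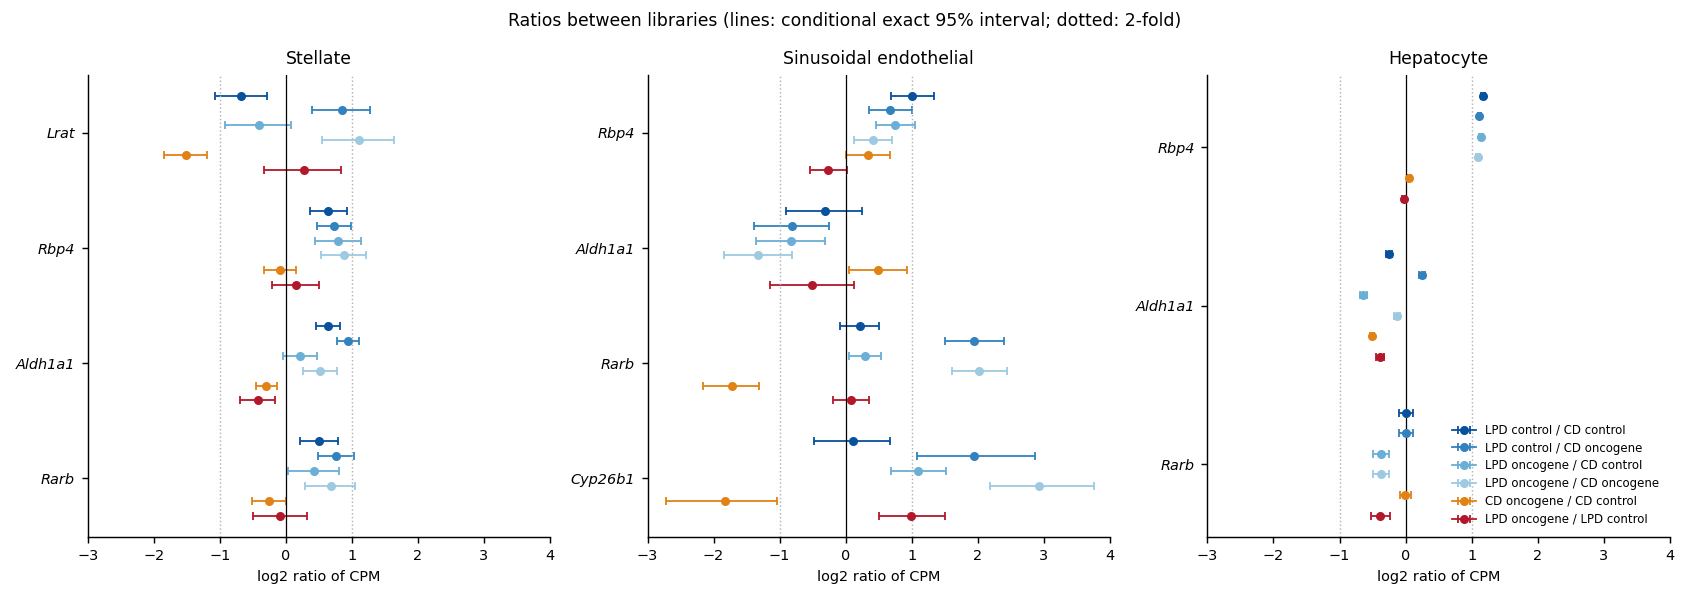
log2 ratio of CPM between libraries (x axis) for the members that passed the minimum level in stellate, sinusoidal endothelial and hepatocyte nuclei, with 4 diet pairs (blue) and 2 injection pairs (orange on CD, red on LPD); lines are conditional exact 95% intervals and dotted lines mark 2-fold. Hepatocyte Rbp4 lies beyond 2-fold in all 4 diet pairs and near 0 in both injection pairs.

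Zones of the liver lobule could be compared inside each liver, so that the 4 libraries served as replicates. Blood flows from the portal to the central vein, and hepatocytes differ along the way. Each hepatocyte nucleus with at least 10 UMIs of 12 pericentral and 12 periportal genes was scored from 0 (periportal) to 1 (pericentral), and the nuclei of each library were cut by rank into 3 equal zones, periportal, middle and pericentral. In all, 3890 to 8293 nuclei per library were scored, and 20.4% to 41.9% of them lay within 0.05 of a limit. LPD control had 2352 nuclei tied at a score of 0, more than its periportal zone of 2101, so ties there were split by order. Median depths were 6060.5, 5051, 2257 and 2882 UMIs in the periportal and 5475, 5929, 2831 and 3227 in the pericentral zones. UMIs were summed over each outer zone and tested with edgeR's quasi-likelihood test, with library as a block and Benjamini-Hochberg adjustment over 12812 genes, of which 6.81% were called higher pericentrally and 7.13% higher periportally at adjusted p under 0.05.

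Of the 7 members, 4 had enough counts for the zone test, and 2, Aldh1a1 and Cyp26a1, were higher in the pericentral zone. Aldh1a1 was at 172, 135, 192 and 151 CPM in the periportal zone and at 579, 377, 434 and 322 CPM in the pericentral zone. The zones did not overlap, and the edgeR fold was 2.53 (log2 1.34, SE 0.10, adjusted p = 0.000375, higher in 4 of 4 libraries). Per library it was 3.36-fold, 2.79-fold, 2.26-fold and 2.13-fold, larger in both CD libraries than in both LPD libraries. The LPD nuclei were shallower in both zones, and LPD control had 2352 nuclei tied at a score of 0. The part of less exact zone scores in the smaller LPD ratios was not tested.

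Cyp26a1 was at 7.56, 3.33, 9.76 and 6.18 CPM in the periportal zone and at 16.98, 4.30, 25.5 and 10.7 CPM in the pericentral zone. It was higher pericentrally in 4 of 4 libraries, with an edgeR fold of 1.89 (log2 0.92, SE 0.19, adjusted p = 0.0175). In CD oncogene the interval of the log2 ratio reached below 0 (0.37, -0.12 to 0.86). The call was lost without CD control (edgeR adjusted p = 0.0908), without LPD control (adjusted p = 0.0688) and without the library block (adjusted p = 0.701). CYP26A1 clears retinoic acid, and its gene was thus called on the same side as that of the synthesising ALDH1A1.

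Rbp4 and Rarb were not called by zone. Rbp4 was higher pericentrally in 4 of 4 libraries, from 344, 372, 686 and 707 CPM to 397, 393, 1027 and 933 CPM, with an edgeR log2 difference of 0.28 (SE 0.11, adjusted p = 0.162). With nuclei of at least 500 genes and at most 5% mitochondrial UMIs it was called (log2 0.37, edgeR adjusted p = 0.0235). Rarb had a log2 difference of -0.16 (SE 0.23, edgeR adjusted p = 0.734), and its libraries went different ways. Periportal levels were 60.2, 48.9, 50.3 and 26.9 CPM and pericentral levels 32.1, 47.2, 52.5 and 42.8 CPM. Rarb was lower pericentrally in CD control (-0.91, -1.08 to -0.74), higher in LPD oncogene (0.67, 0.33 to 1.02) and near 0 in CD oncogene (-0.05, -0.19 to 0.08) and LPD control (0.06, -0.17 to 0.30).

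**Figure D5:**
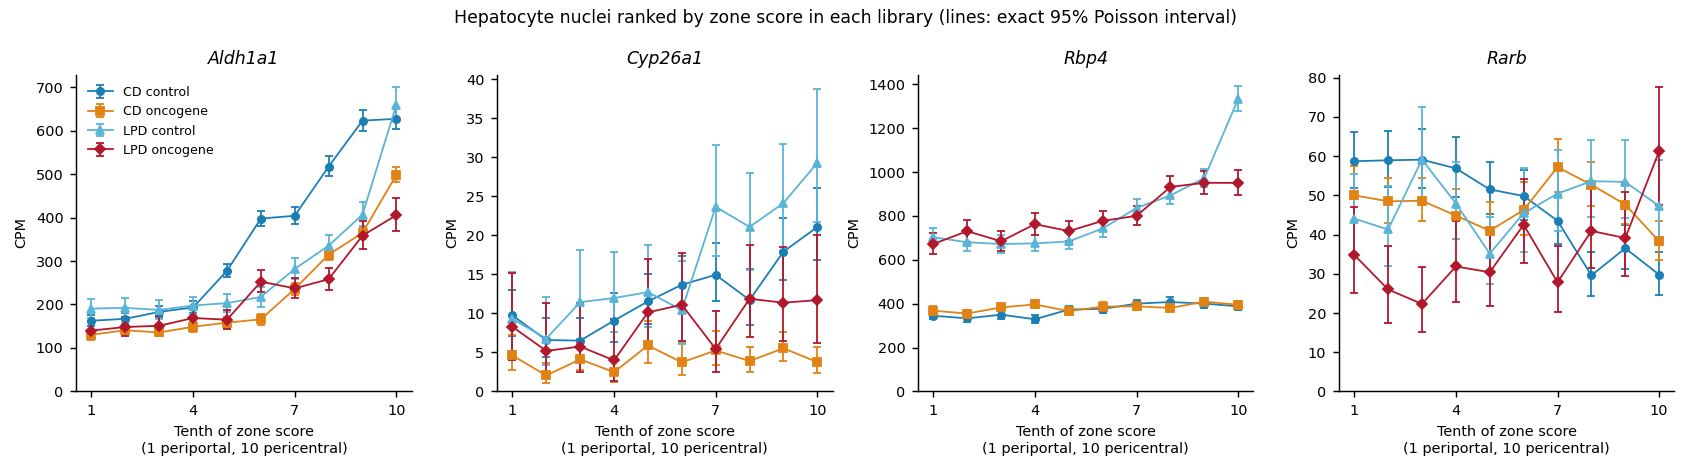
Level in CPM (y axis) of Aldh1a1, Cyp26a1, Rbp4 and Rarb in hepatocyte nuclei ranked by zone score into 10 equal parts (x axis, 1 periportal to 10 pericentral) in each library, with exact 95% Poisson intervals. Aldh1a1 climbs toward the pericentral end in every library, Rbp4 is separated by diet along the whole axis, and Rarb has no common slope.

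Among the pathway lists, retinol and retinal interconversion had 2 genes higher pericentrally and 4 higher periportally of 16 tested (edgeR, adjusted p under 0.05). Rdh9 was 16.9-fold (adjusted p = 0.00187) and Rdh16 4.13-fold (adjusted p = 0.00111) higher pericentrally by edgeR, and both genes code for retinol dehydrogenases. Dhrs9, of the same enzyme family, was 2.83-fold higher periportally (edgeR adjusted p = 0.000552), with Rdh5, Rdh13 and Rdh16f2 at 1.31-fold to 1.59-fold. Both carotenoid cleavage genes were called in opposite directions, Bco1 3.26-fold higher periportally and Bco2 1.46-fold higher pericentrally. Bco1 was low in hepatocyte nuclei (2.92 to 7.17 CPM against 88.9 to 168 CPM in stellate nuclei), and the part of free stellate RNA in its zone difference was not tested. Of 11 ester genes, Lpl (8.80-fold), Ces1g (1.82-fold), Ces1d (1.67-fold) and Lipa (1.23-fold) were higher pericentrally and Pnpla3 (4.17-fold) periportally. Stra6l was 1.52-fold and Rarg 2.25-fold higher periportally, the only genes called of 6 binding proteins and 9 receptors and corepressors. The other retinoic acid enzymes had 1 of 5 called, Aox1, 1.86-fold higher pericentrally. Of 7 genes known to be raised by retinoic acid, Rarres1 was higher pericentrally and Tgm2, Meis1 and Meis2 higher periportally. Some of these genes had higher medians outside hepatocytes. Sinusoidal endothelial nuclei held Rarg at 105 CPM against 5.15 CPM in hepatocyte nuclei, and Meis2 at 2558 against 71.5 CPM. Kupffer nuclei held Lpl at 70.4 against 5.54 CPM and Tgm2 at 107 against 20.5 CPM, and mesothelial nuclei Meis1 at 497 against 55.8 CPM. The part of free RNA of those cells in the zone differences was not tested. The median log2 difference of all genes tested was 0.002, with 6.81% called higher pericentrally and 7.13% higher periportally.

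Transgene-positive hepatocytes were compared with negative ones in the library labelled CD control, which held 86 positive nuclei among 7965. Aldh1a1 was at 667 CPM in positive and 341 CPM in negative nuclei (log2 ratio 0.97, 0.84 to 1.09), and Rarb at 23.4 and 47.9 CPM (-1.04, -1.77 to -0.39). Of the 85 positive nuclei with a zone score, 79 scored in the pericentral zone, where Aldh1a1 is high and Rarb low in this library. The score counts Glul, a β-catenin target, and Lgr5. The study reports both as high in oncogene-expressing hepatocytes, which it places mostly in periportal and midzonal areas. The score therefore cannot tell where in the lobule these nuclei lay. Among nuclei that scored pericentral the ratio was 0.22 (0.09 to 0.35) for Aldh1a1 and -0.39 (-1.14 to 0.27) for Rarb, with median depths of 7389 and 5380 UMIs.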

How the data were processed

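Nuclei from frozen mouse liver were profiled with 10x 3′ chemistry, with 1 library in each of 4 groups, grouped by the labels. The deposited values are whole-number UMI counts per gene and barcode, which the authors made with Cell Ranger 9.0.1 (per the file headers) on mm10 with the human transgenes added. Seurat 5 is in the submitters' processing notes. Whether intron reads were counted and how strand was set is not given in the sources used here, so reads of overlapping genes such as Rarb and Top2b may not be separable.

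From the deposited counts, barcodes with 200 to 7000 genes and at most 21% mitochondrial UMIs were kept, as in the study's methods. Nuclei were clustered on 5000 variable genes (23 components corrected for library, 20 neighbours, resolution 0.4) and named from marker lists, and clusters with mixed hepatocyte and other markers (235 to 317 nuclei per library) were removed as doublets. The rule for proliferating clusters was tightened after the data were seen. A class with fewer than 20 nuclei in a library gave no value there. CPM are summed UMIs of a class in a library, with exact intervals from scipy 1.17.1. Free RNA was read from reference genes of hepatocytes and stellate cells. For the zone score, each gate list's UMIs in a nucleus were divided by the library's total for that list, and gate genes were not tested. edgeR 4.0.16 (quasi-likelihood, TMM factors, filterByExpr, library block) was the zone test and DESeq2 1.42.0 the alternative. On simulated sums over 12997 genes, edgeR recovered 96 of 100 genes with a log2 change of 1 and 72 of 100 with 0.5. The simulated libraries shared the same gene means, a fixed dispersion and the same zone change. The recovery in the real libraries, whose zone ratios differed, is therefore not given by these figures.

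The members, the gene lists and the tests were chosen with earlier results of these data known. All 7 members are named. Of the pathway lists, genes with at least 20 CPM in their leading class may be named, and for likeness of profile the 3 genes of highest correlation were considered among 10699 genes. Rdh13, Dhrs9 and Rarres1 lie below that level and are named because their zone results were called, and Acta2 and Tagln as examples of the stellate activation list, all chosen after their values were seen. Alternatives covered scaling, pseudocount, filters on genes and nuclei, class and zone limits, and each library left out. Promoter sequences are from RefSeq (GRCm38.p6), which had entries for all 7 members, and gene positions are GENCODE vM21 on GRCm38. No comparison columns of the authors were used. Some genes of the lists are not reported here.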

Additional observations from a re-analysis of the deposited data

Results flagged for a closer look

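In 3 results the direction was opposite in 2 groups under the same contrast, and none of these differences was tested, since each group is 1 library. Cyp26b1 in sinusoidal endothelial nuclei was lower in the library labelled CD oncogene than in that labelled CD control (log2 ratio -1.83) and higher in LPD oncogene than in LPD control (0.99). Transgene UMIs go against the CD labels, and with those exchanged Cyp26b1 would be higher in the oncogene library on both diets. The CD oncogene library also had the lowest summed sinusoidal markers (5523 CPM), and the part of that in the result was not tested.

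Lrat in stellate nuclei was lower on LPD in the control libraries (log2 ratio -0.67) and higher on LPD in the oncogene libraries (1.11). With the CD labels exchanged the pairs would be LPD control over the library labelled CD oncogene (0.84) and LPD oncogene over that labelled CD control (-0.41), again in opposite directions. The CD control library held the most Lrat per 1000 stellate marker UMIs (43.4) and the other libraries 18.6 to 20.6.

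Hepatocyte Rarb was lower in the pericentral than in the periportal zone in CD control (log2 ratio -0.91) and higher in LPD oncogene (0.67). These rest on 442 and 883 UMIs in CD control and on 197 and 113 UMIs in LPD oncogene.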

How the results depend on the processing

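Among the level results, 4 members (Lrat, Rbp4, Aldh1a1 and Cyp26b1) led in one class in all 4 libraries under each of the stricter nuclei, stricter marker and uncorrected clustering settings. Vascular endothelial nuclei, next to sinusoidal nuclei for Cyp26b1, gave no value under the stricter marker and uncorrected settings. They numbered 4, 14, 7 and 8 by stricter markers, under the limit of 20, and 0 in uncorrected clustering. The Cyp26b1 lead over them was therefore not checked there. The count of members called on diet in hepatocyte nuclei fell from 1 to 0 with TMM factors, and in stellate nuclei it rose from 0 to 1 (Rbp4) in nuclei chosen strictly by markers. In sinusoidal endothelial nuclei the injection count rose from 0 to 1 (Lrat) with no filter on low genes. With 1 library left out, the members called ranged from 0 to 1 for stellate injection (Lrat, without either LPD library), from 0 to 2 for sinusoidal diet and from 0 to 2 for sinusoidal injection (Rarb and Cyp26b1, without either LPD library). The leave-out runs and the sinusoidal comparisons were chosen after seeing the data, as was the pericentral-only comparison of transgene-positive nuclei.

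In the zone test, edgeR without the library block called 1 member (Aldh1a1) and 105 of 12812 genes, against 2 members and 1786 genes with it. Leaving out a library gave 1 to 2 members and 1146 to 1319 genes, the fewest without CD control. The log2 zone difference of Rarb ran from -0.37 to 0.14 and was above 0 without CD control (edgeR adjusted p = 0.682). DESeq2 called 1573 genes and both of the same members. For transgene-positive nuclei, members whose interval excluded 0 went from 2 to 1 within the pericentral zone, and the log2 ratio of Rbp4 turned to -0.77 with at least 2 transgene UMIs (9 nuclei) and to -0.0306 within that zone. The causes of these changes were not tested.

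Counts over all genes past 2-fold moved with the settings too. With a pseudocount of 1 CPM the injection counts were 61, 39 and 53 in stellate, hepatocyte and sinusoidal nuclei, against 32, 25 and 27. With no filter on low genes the stellate counts were 335 for diet and 67 for injection against 208 and 32, and the sinusoidal counts 390 and 73 against 233 and 27. With strict marker nuclei stellate diet gave 94 of 2289 genes. With 1 library left out, diet counts rose to 433 to 810 in stellate, 455 to 573 in hepatocyte and 363 to 1234 in sinusoidal nuclei, and injection counts to 246 to 802, 180 to 294 and 303 to 852. No paired analysis was possible because each group has a single library and the groups share fewer than 2 replicate numbers. Depth limited Aldh1a2 (46 UMIs), Cyp26b1 outside endothelial nuclei and Lrat outside stellate nuclei.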

Other observations

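Within stellate nuclei, Lrat and Rarb were detected together in 66, 41, 22 and 14 nuclei of the libraries in the same order, where the product of their shares gives 60.7, 27.9, 18.5 and 8.81. Lrat and Aldh1a1 were together in 101, 64, 40 and 17 nuclei against 92.2, 53.4, 34.7 and 16.4. Aldh1a1 and Rarb were together in 106, 114, 72 and 22 nuclei against 97.9, 101.7, 71.96 and 21.4. Deeper nuclei detect more of every gene, and reference hepatocyte genes stood in stellate nuclei at a median of 48.9% to 71.6% of their hepatocyte level, so these counts describe shared detection and not expression in the same cell. In sinusoidal endothelial nuclei Rarb and Cyp26b1 were together in 21, 1, 8 and 43 nuclei against 17.3, 1.54, 8.26 and 36.4.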
